A study of Mus musculus with 8 samples.

Results

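The genes described are 7 markers of blood cells other than dendritic cells: S100a8 and S100a9 of neutrophils, Prss34 and Cpa3 of mast cells and basophils, and Cd79a, Cd79b and Ms4a1 of B cells. They were selected on measured values, because their counts are high in 1 library, WT steady-state replicate 2, and they are 7 of the 23420 genes in the deposited count table. That library held the highest level of each, from 1.97-fold (Cd79a) to 41.4-fold (Prss34) above the next highest library, and these folds restate the choice. Read counts per gene were measured by RNA-seq in 8 libraries of mouse dendritic cells. The 4 groups, of 2 libraries each, were Gata1 knock-out (KO) cells treated with LPS, wild-type (WT) cells treated with LPS, KO cells at steady state (ST in the plots) and WT cells at steady state. LPS, bacterial lipopolysaccharide, is sensed by toll-like receptors. The dose and duration of LPS, the tissue or culture that gave the cells, the age of the mice, the promoter or deleter behind the knock-out and any sort of the cells were not stated in the material read for this account. The series text calls the 2 libraries of a group biological replicates, without saying whether they came from separate animals or cultures, so the spread behind the p-values is that between libraries and could be technical.

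Neutrophils store S100A8 and S100A9, which pair as calprotectin, at high levels in their cytosol, and other myeloid cells can make both in inflammation. Mast cells and basophils pack granules with proteases such as those encoded by Prss34 and Cpa3, and need GATA factors to develop. B cells carry the antigen receptor whose signalling chains are CD79A and CD79B, and the surface protein CD20, which Ms4a1 encodes. Dendritic cells present antigen to T cells and are defined by other genes.

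Total counts ran from 8005151 in KO LPS replicate 2 to 15495249 in WT LPS replicate 2, and levels below are counts scaled to library size (CPM, with TMM factors). Gata1, the targeted gene, had 0 reads in all 4 KO libraries, 0 and 1 in WT LPS replicates 1 and 2, and 1 and 10 in WT steady-state replicates 1 and 2. The highest Gata1 count thus lay in the same library as the marker genes. A count of 0 in a library allows a level of up to 0.185 to 0.459 CPM, the worth of 3 reads, and this limit covers counting error only. The label was set beside the levels of 10 genes listed as markers of dendritic cells, among them Itgax, Flt3, Zbtb46 and the MHC class II genes. All 10 passed the filter on low counts. Their sum, set mostly by Cd74, H2-Aa and H2-Ab1, was 5020 and 9948 CPM in KO with LPS, 17250 and 11349 in WT with LPS, 20370 and 19141 in KO at steady state, and 27384 and 14635 in WT at steady state. Flt3, the receptor of a growth factor of dendritic cells, was at 0.452 and 0.306 CPM in KO with LPS, 0.925 and 18.7 in WT with LPS, 33.4 and 35.1 in KO at steady state, and 19.9 and 55.9 in WT at steady state. In KO cells, 5 of the 10 (Itgax, Flt3, Zbtb46, Ciita and Batf3) fell with LPS by edgeR's adjusted test, beside 11.8% of all genes called in either direction. None of these 5 kept the call in every fit that left out 1 library. Markers of macrophages and monocytes summed to 5359 and 6388 CPM in KO with LPS, and to 5127 and 2734 in WT with LPS. At steady state they summed to 4432 and 4558 CPM in KO, and to 3935 and 2984 in WT. The label itself was not tested by these sums.

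In the mouse build GRCm38 (mm10), S100a8 lies on chromosome 3 from 90668978 to 90670035 on the plus strand, and S100a9 beside it from 90692632 to 90695721 on the minus strand. Cpa3 is on the same chromosome from 20215620 to 20242181 (minus), and Prss34 on chromosome 17 from 25298394 to 25300165 (plus). Cd79a lies on chromosome 7 from 24897381 to 24902197 (plus), Cd79b on chromosome 11 from 106311341 to 106314762 (minus) and Ms4a1 on chromosome 19 from 11249675 to 11266241 (minus). Because the knocked-out gene encodes a factor that binds GATA-type motifs, promoter windows from 250 bases before to 50 after the RefSeq start (GRCm38.p6) were searched for AGATAA on both strands (TTATCT on the other). Of the 7 genes, 5 had a window in the table and 3 of these 5 held 1 match, against 3672 of 32851 windows of this length (11.2%). The matches, in capitals below, began 31 bases before the start of Prss34, 46 before that of Cpa3 and 30 before that of S100a9. The windows of S100a8 and Cd79a held none. A match is a run of letters, and binding was not measured. The 3 windows are shown so that the matches can be seen, at chr17:25298144-25298443 on the plus strand, and at chr3:20242132-20242431 and chr3:90695672-90695971 on the minus strand.
Prss34: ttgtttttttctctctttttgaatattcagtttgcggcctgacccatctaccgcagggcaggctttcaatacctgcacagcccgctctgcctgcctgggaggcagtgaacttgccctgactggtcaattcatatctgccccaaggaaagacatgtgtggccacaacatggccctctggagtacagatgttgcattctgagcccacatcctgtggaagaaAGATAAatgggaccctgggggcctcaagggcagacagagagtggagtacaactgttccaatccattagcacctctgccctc
Cpa3: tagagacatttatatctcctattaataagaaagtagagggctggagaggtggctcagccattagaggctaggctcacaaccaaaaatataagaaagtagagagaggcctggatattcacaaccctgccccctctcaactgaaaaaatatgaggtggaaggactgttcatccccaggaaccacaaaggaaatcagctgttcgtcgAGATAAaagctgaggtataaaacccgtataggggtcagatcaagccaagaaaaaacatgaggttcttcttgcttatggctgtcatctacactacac
S100a9: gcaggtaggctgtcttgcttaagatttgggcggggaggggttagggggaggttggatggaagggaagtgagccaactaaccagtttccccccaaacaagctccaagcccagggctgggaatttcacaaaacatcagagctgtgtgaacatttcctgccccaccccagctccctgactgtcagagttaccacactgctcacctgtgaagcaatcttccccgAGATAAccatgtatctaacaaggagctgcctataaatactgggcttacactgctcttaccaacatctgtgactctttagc

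The neutrophil pair differed between its members. S100a8 was at 10.2 and 22.5 CPM in KO with LPS, 9.25 and 8.16 in WT with LPS, 2.48 and 2.65 in KO at steady state, and 8.59 and 50.3 in WT at steady state (replicates 1 and 2 each time). It was present in every library, with KO LPS replicate 2 next below WT steady-state replicate 2 and the KO steady-state libraries lowest, and WT steady-state replicate 2 held 53.4% of its 1267 reads. KO LPS replicate 1, both WT LPS libraries and WT steady-state replicate 1 were not apart beyond their 95% counting intervals. S100a9 was at 0 and 1.38 CPM in KO with LPS, 1.72 and 0.742 in WT with LPS, 2.40 and 0.973 in KO at steady state, and 9.36 and 87.8 in WT at steady state. Its 2 highest levels were both in WT at steady state, and replicate 2 held 87.2% of its 1355 reads, 9.38-fold above replicate 1. Outside the WT steady-state group, S100a9 stayed between 0 and 2.40 CPM, and there each library overlapped the next in order of level in its 95% counting interval. Libraries further apart in that order did not all overlap, as with KO LPS replicate 1 (0 to 0.416 CPM) and KO steady-state replicate 1 (1.63 to 3.41 CPM).

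The mast cell and basophil pair was close to absent elsewhere. Prss34, a serine protease of mouse basophils and mast cells, was at 0 CPM in both KO LPS libraries, 0 and 0.0618 in WT with LPS, 0.233 and 0.177 in KO at steady state, and 1.35 and 55.9 in WT at steady state. It had 752 of its 772 reads (97.4%) in WT steady-state replicate 2, 14 in replicate 1 of that group and 6 in the other libraries together. Cpa3, carboxypeptidase A3 of mast cell and basophil granules, was at 0 and 0.153 CPM in KO with LPS, 0 and 0.185 in WT with LPS, 1.55 and 0.708 in KO at steady state, and 0.869 and 16.7 in WT at steady state. Next below WT steady-state replicate 2 came KO steady-state replicate 1, at 20 reads against 225, and the 4 LPS libraries had at most 3 reads each. All LPS libraries were at or under the 3-read limit for both genes.

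As a class, the B cell genes were the least concentrated in 1 library, though S100a8 alone, at 53.4% of its reads, was less so than Cd79b and Ms4a1. Cd79a was at 0.113 and 0.306 CPM in KO with LPS, 0.132 and 1.17 in WT with LPS, 1.09 and 3.36 in KO at steady state, and 1.64 and 6.61 in WT at steady state. KO steady-state replicate 2 was second highest, and WT steady-state replicate 2 held 49.2% of 181 reads. Cd79b was at 0.790 and 0.153 CPM in KO with LPS, 0.396 and 2.04 in WT with LPS, 1.16 and 1.68 in KO at steady state, and 1.45 and 8.99 in WT at steady state. Here WT LPS replicate 2 came second, 4.41-fold below the highest library, which held 56.5% of 214 reads. Ms4a1 was at 0.113 and 0 CPM in KO with LPS, 0 and 0.989 in WT with LPS, 0.542 and 1.86 in KO at steady state, and 0.386 and 6.76 in WT at steady state. The highest library held 65.0% of its 140 reads, and WT steady-state replicate 1 was 17.5-fold lower, on 4 reads. For each of these 3 genes, and for Cpa3, the libraries other than WT steady-state replicate 2 overlapped each next one in the order of levels in their 95% counting intervals. Libraries further apart in that order did not all overlap. For Cd79a the interval was 2.38 to 4.62 CPM in KO steady-state replicate 2 and 0.593 to 1.82 CPM in KO steady-state replicate 1. For all 3 B cell genes WT LPS replicate 2 was above WT LPS replicate 1, and KO steady-state replicate 2 above KO steady-state replicate 1.

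**Figure D1:**
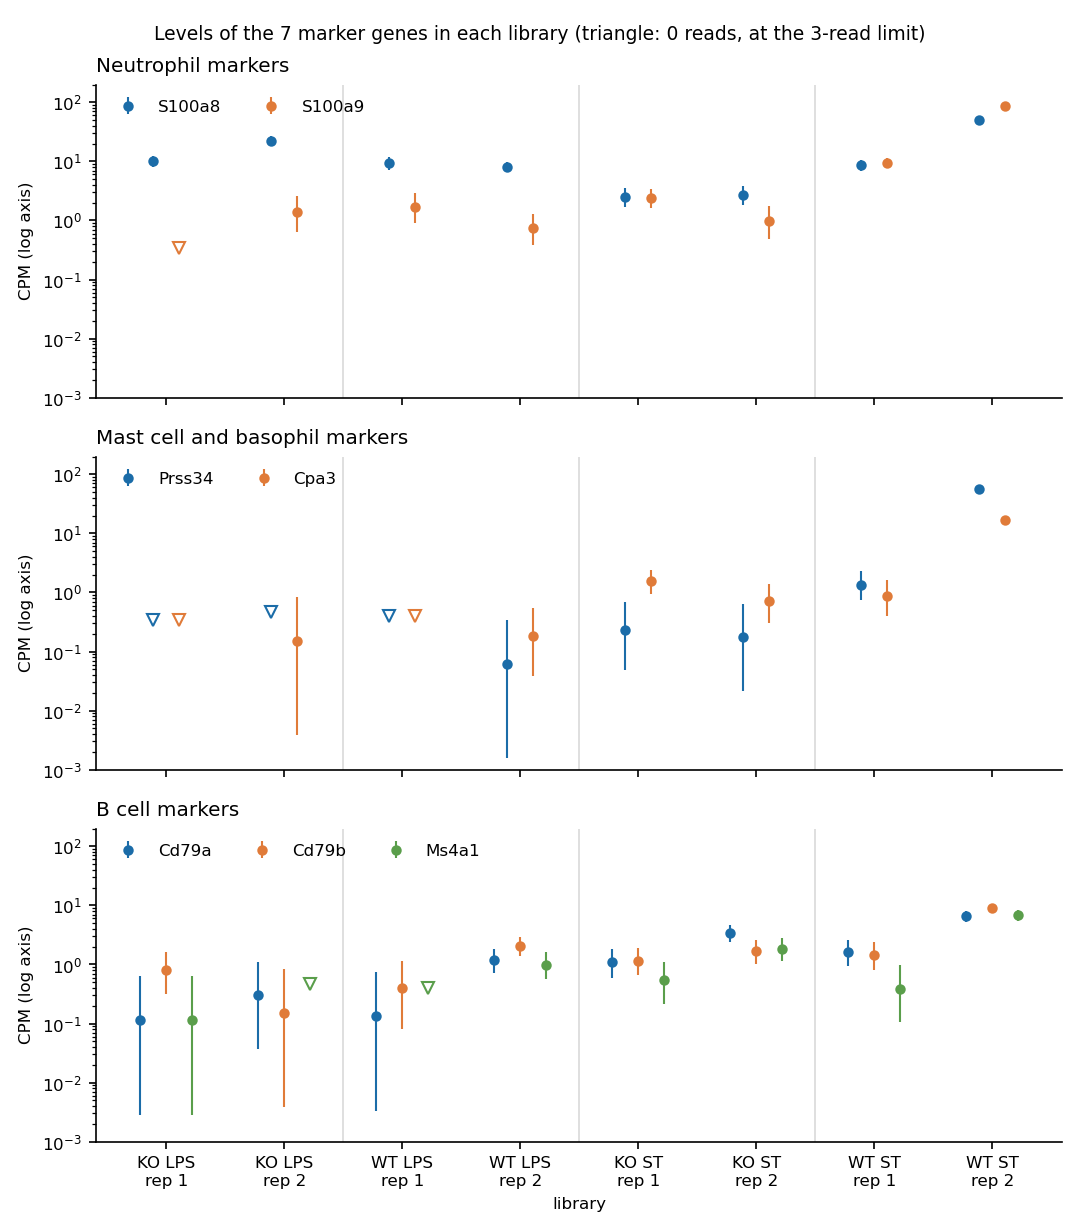
CPM of the 7 marker genes on a log axis in each of the 8 libraries, with exact Poisson 95% intervals that cover counting error only; open triangles stand for 0 reads and are drawn at the 3-read limit. WT steady-state replicate 2 is highest in every panel, at 50.3 CPM for S100a8, 55.9 for Prss34 and 8.99 for Cd79b.

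Summed over their members, the neutrophil genes reached 138 CPM in WT steady-state replicate 2 against 3.63 to 23.9 CPM in the other 7 libraries, and 70.9% of their reads. The mast cell and basophil genes reached 72.6 CPM against 0 to 2.22, and 94.1% of their reads. The B cell genes reached 22.4 CPM against 0.459 to 6.90, and 56.3% of their reads. Per kilobase of exon, the scale on which genes can be set beside each other, WT steady-state replicate 2 was at 168 CPM for S100a9, 72.5 for S100a8, 45.8 for Prss34, 6.28 for Cd79b, 4.54 for Cd79a and 1.09 for Ms4a1. Cpa3 lay between Prss34 and Cd79b on this scale, so that all B cell genes were below the other classes there. In bulk libraries, fewer cells of a type and less RNA per cell cannot be told apart.

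The proportions within a class were not the same in all libraries. S100a8 made up 100% and 94.2% of the reads of the pair S100a8 and S100a9 in KO with LPS, and 84.3% and 91.7% in WT with LPS. At steady state its share was 50.8% and 73.2% in KO, and 47.8% and 36.4% in WT, so that each measured share with LPS was above each at steady state. The exact 95% intervals (Clopper-Pearson) of WT LPS replicate 1, 74.7% to 91.4%, and of KO steady-state replicate 2, 57.1% to 85.8%, overlapped. The intervals ran from 34.2% to 38.7% in WT steady-state replicate 2 and from 40.5% to 55.3% in replicate 1. Prss34 made up 13.0% of 23 and 20% of 10 reads of Prss34 and Cpa3 in KO at steady state (intervals 2.78% to 33.6% and 2.52% to 55.6%). In WT at steady state it made up 60.9% of 23 and 77.0% of 977 reads (38.5% to 80.3% and 74.2% to 79.6%). The intervals of KO replicate 2 and WT replicate 1 overlapped, and the LPS libraries had at most 4 reads of the pair. Among B cell reads the shares of Cd79a, Cd79b and Ms4a1 were 29.6%, 40.2% and 30.2% of 301 in WT steady-state replicate 2. They were 27.9%, 48.5% and 23.5% of 68 in WT LPS replicate 2, and 48.7%, 24.4% and 26.9% of 78 in KO steady-state replicate 2.

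**Figure D2:**
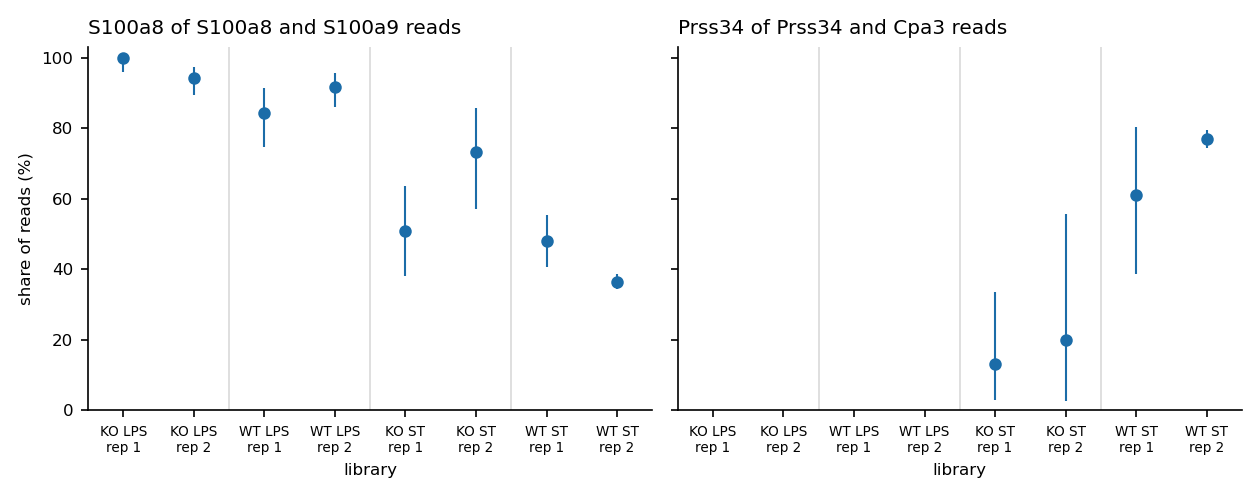
Share of S100a8 in the reads of S100a8 and S100a9 (left) and of Prss34 in the reads of Prss34 and Cpa3 (right) in each library, with exact 95% binomial intervals, drawn where the pair had at least 10 reads. The S100a8 share is 84.3% to 100% in the 4 LPS libraries and 36.4% to 73.2% in the 4 steady-state libraries.

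In KO against WT cells treated with LPS, none of the 7 genes passed the threshold. None of the 4 libraries compared is the one that chose the genes, but the spread behind the test is estimated over all 8 libraries and so includes it. Without that library the SE for S100a8 was 0.47 in place of 0.75 log2 units. It was 0.44 without WT steady-state replicate 1, so the lower SE was not particular to the library that chose the genes. Of the 7, 0 were called by edgeR's quasi-likelihood test (Benjamini-Hochberg adjusted p under 0.05 over 12442 genes), against 96 genes or 0.772% of all tested, with 0 of the 7 at an unadjusted p under 0.05 (16.9% of all genes) and 0 called by DESeq2 (8.5% of all genes). S100a8 averaged 16.3 ± 8.72 CPM in KO with LPS and 8.71 ± 0.770 in WT with LPS (SD, n = 2 each), a log2 difference of 0.90 ± 0.75 (SE; edgeR adjusted p = 0.616). It was the 1 of the 7 with both KO libraries above both WT libraries, an order that 18% of all genes tested showed, and the other 6 overlapped. The log2 differences of S100a9, Cd79a, Cd79b and Ms4a1 were -0.88 ± 1.57, -1.80 ± 1.38, -1.36 ± 1.20 and -2.94 ± 2.31, with edgeR adjusted p of 0.840, 0.575, 0.643 and 0.586. Cd79b changed sign without WT LPS replicate 2 (0.34) and S100a9 without KO LPS replicate 1 (0.25), and Cd79a and Ms4a1 had too few reads for a fold without WT LPS replicate 2. Prss34 and Cpa3 were at or under the 3-read limit in all 4 libraries, where no difference was detectable. All 7 genes passed the filter on low counts, which the high library helped them to do, so that passing it supports nothing. In the fit of the LPS groups alone, S100a8 was the only 1 of the 7 to pass it.

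In LPS against steady state in KO cells the fit of all 8 libraries called none of the 7 genes, and its spread again includes the library that chose them. The fitted difference was above 0 for S100a8 and below 0 for the others that had a fold. S100a8 averaged 16.3 ± 8.72 CPM in KO with LPS and 2.57 ± 0.124 in KO at steady state (SD, n = 2 each), a log2 difference of 2.66 ± 0.81 (edgeR adjusted p = 0.0732, unadjusted 0.0124). The call depends on the setting: S100a8 passed with DESeq2 (adjusted p = 0.00525), with no filter on low counts (edgeR adjusted p = 0.0154), and in the fit of the 2 groups alone (edgeR adjusted p = 0.0259). It also passed when WT steady-state replicate 1 or 2 was left out (edgeR adjusted p = 0.0388 and 0.0417). Its log2 difference lay between 1.96 and 3.12 under all settings tried. Prss34, Cpa3, Cd79a, Cd79b and Ms4a1 had both LPS libraries below both steady-state libraries, 5 of the 7, where 38.2% of all genes showed that order and 34.4% the opposite one, as S100a8 did. S100a9 overlapped. In the fit the log2 differences were -3.88 ± 2.01 for Cpa3, -3.40 ± 1.31 for Cd79a, -1.49 ± 1.20 for Cd79b, -3.99 ± 2.19 for Ms4a1 and -1.43 ± 1.5 for S100a9. The edgeR adjusted p was 0.216, 0.123, 0.408, 0.239 and 0.529 in that order, and 0 of the 7 were called, against 11.8% of all genes tested. At an unadjusted p under 0.05 were 2 of the 7 (S100a8 and Cd79a), against 32.8% of all genes. No fold is given for Prss34, which had 0 reads in both LPS libraries and 3 and 2 reads at steady state.

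At steady state, the KO against WT contrast holds the library that chose the genes, so their values there carry no test. S100a8, S100a9 and Prss34 were lower in both KO libraries than in both WT libraries, 3 of the 7 beside 23.4% of all genes, and Cpa3, Cd79a, Cd79b and Ms4a1 overlapped. Nothing is read from that count. Over all genes edgeR called 0 of 12442 (0%) in this contrast, with 327 at an unadjusted p under 0.05 and 27 called by DESeq2. The fitted log2 differences were -3.52 for S100a8, -4.83 for S100a9, -7.04 for Prss34, -2.95 for Cpa3, -0.90 for Cd79a, -1.88 for Cd79b and -1.59 for Ms4a1. Without WT replicate 2, where the WT group is 1 library, they were -1.75, -2.47 and -2.66 for S100a8, S100a9 and Prss34 and -0.04 for Cd79b. Those of Cpa3, Cd79a and Ms4a1 turned to 0.37, 0.42 and 1.59. Without WT replicate 1 all 7 were further below 0, from -1.58 for Cd79a to -8.01 for Prss34.

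**Figure D3:**
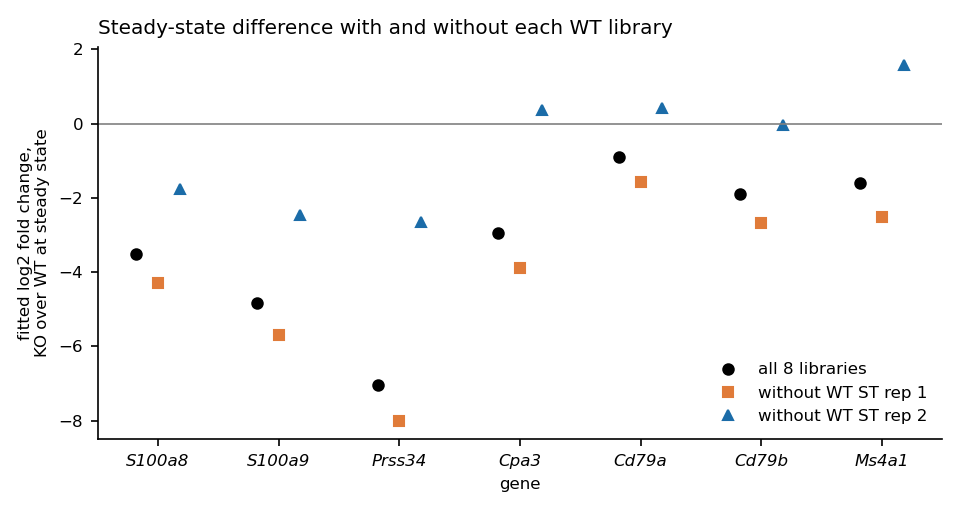
Fitted log2 fold change of KO over WT at steady state for each of the 7 genes, with all 8 libraries (circles), without WT steady-state replicate 1 (squares) and without WT steady-state replicate 2 (triangles). Without replicate 2, Cpa3, Cd79a and Ms4a1 lie above 0, at 0.37, 0.42 and 1.59.

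Other markers of the same cell types, taken from lists of known markers, were also often highest in WT steady-state replicate 2. The lists were written with earlier results of these data known, so their shares are a description and not an independent check. Over all genes tested 12% had their highest level there, and the median gene lay 0.0069 log2 units above the median of the other 7 libraries. Of the other neutrophil markers this held for 7 of 17 tested (41.2%; median 0.92 log2 units), of the other mast cell and basophil markers for 3 of 8 (37.5%; 0.74) and of the other B cell markers for 4 of 7 (57.1%; 1.22). A highest rank can rest on a small margin. The 3 mast cell and basophil genes, Csf2rb2, Kit and Cyp11a1, were only 1.03-, 1.07- and 1.23-fold above the next highest library. With total counts and no factor that list gave 25%. Among the neutrophil genes the margin was smallest for Mmp8 (1.04-fold) and largest for Ngp (48.9 against at most 2.22 CPM elsewhere). Among the B cell genes it was smallest for Fcrla (1.06-fold), beside 4.30-fold for Pou2af1. A highest rank there was not particular to these lists: among genes tested it held for 4 of 6 plasma cell markers (66.7%) and 4 of the 10 on the dendritic cell list (40%). It held for 1 of 5 megakaryocyte and platelet, 0 of 4 T cell and 0 of 10 macrophage and monocyte markers tested. Among genes with at least 1 read it held for 14.0% of all. On that base it held for 10 of 21 other neutrophil, 7 of 14 other mast cell and basophil and 10 of 13 other B cell markers. It also held there for 4 of 7 plasma cell markers (57.1%), 4 of 8 megakaryocyte and platelet markers (50%) and 5 of 12 T cell markers (41.7%). Some of these rest on few reads, as with the T cell gene Themis at 1 read. Of the 7 libraries behind the medians 4 had LPS, so a gene lowered by LPS can also give a raised median. The eosinophil list had the largest median of the lists, 1.84, with 1 of 6 genes tested highest in WT steady-state replicate 2. The plasma cell list had a median of 0.79, the stromal, endothelial and epithelial list 0.70, the plasmacytoid dendritic cell list 0.59 and the dendritic cell list 0.53. Because a gene read in 1 library alone is dropped by the filter, list genes with at most 10 reads in each other library were counted too. At least 10 reads in WT steady-state replicate 2 were found for 2 of 4 such neutrophil genes, 4 of 6 mast cell and basophil genes and 4 of 6 B cell genes. The same held for 3 of 31 such genes in the 10 lists of other cell types, and for 195 of 4534 genes (4.3%) over the table.

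The genes of the neutrophil list did not share 1 pattern. Mpo, myeloperoxidase, was at 5.13 CPM in WT steady-state replicate 2 and at most 0.483 in the other 7 libraries. Elane, neutrophil elastase, had 4 reads there and at most 4 elsewhere, and Prtn3, proteinase 3, was at 2.30 CPM there and 2.71 in KO LPS replicate 1. Ngp and Ltf, secondary granule proteins named after their values were seen, were at 48.9 and 43.9 CPM against at most 2.22 and 12.2. The 3 most abundant list genes followed other patterns. Lcn2, which binds bacterial iron carriers, was at 2076 and 2757 CPM in KO with LPS, 2423 and 1022 in WT with LPS, 2.09 and 3.81 in KO at steady state, and 3.38 and 35.1 in WT at steady state. Hp, haptoglobin, was at 1015 and 386 CPM in KO with LPS, 209 and 349 in WT with LPS, 74.2 and 46.4 in KO at steady state, and 46.9 and 39.2 in WT at steady state. Mmp8, a collagenase, ran from 145 to 579 CPM and was highest in WT steady-state replicate 2. These abundant genes set the summed list, which was 4168 and 3755 CPM in KO with LPS, 2991 and 1677 in WT with LPS, 1189 and 980 in KO at steady state, and 924 and 1056 in WT at steady state.

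Of the mast cell and basophil list, genes of basophil granules and of the IgE receptor had most of their reads in 1 library. Mcpt8, a basophil granule protease, had 139 reads (10.3 CPM) in WT steady-state replicate 2 and at most 0.193 CPM in any other. Fcer1a and Ms4a2, the alpha and beta chains of the high-affinity IgE receptor, had 31 and 42 reads there (2.30 and 3.12 CPM) and at most 0.0965 and 0.247 CPM elsewhere, with 9 further Ms4a2 reads over the other libraries. Cma1 and Mcpt4, mast cell chymases, had 0 reads in all 8 libraries. Gata2, a factor of mast cells, basophils and progenitors, was at 10.4 and 27.7 CPM in KO with LPS, 135 and 67.6 in WT with LPS, 50.8 and 76.0 in KO at steady state, and 32.1 and 36.5 in WT at steady state. Hdc, the enzyme that makes histamine, was at 1.13 and 3.37 CPM in KO with LPS and 130 and 17.8 in WT with LPS, and at most 2.30 CPM at steady state. Cd200r3, an activating receptor of basophils and mast cells, ran from 0.989 to 7.66 CPM with LPS and from 16.3 to 46.7 CPM at steady state. Csf2rb2, a beta chain of the interleukin-3 receptor, ran from 589 to 1504 CPM over the 8 libraries, so the summed list (630 to 1654 CPM) says little of the granule genes.

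Of the B cell list, Pax5 and Ebf1, which fix B cell identity, had 14 and 11 reads in WT steady-state replicate 2 (1.04 and 0.817 CPM) and at most 0.185 and 0.247 CPM elsewhere. Cd22, an inhibitory lectin of B cells, followed another order, at 44.1 and 33.0 CPM in KO with LPS, 16.7 and 5.32 in WT with LPS, 39.1 and 28.2 in KO at steady state, and 23.0 and 32.7 in WT at steady state. Bank1, a B cell adaptor, was highest in KO steady-state replicate 2 at 13.2 CPM, and Tnfrsf13c, the receptor for the survival factor BAFF, in WT LPS replicate 1 at 7.80 CPM. The summed list was 68.4 CPM in WT steady-state replicate 2 and 13.4 to 50.7 CPM in the other libraries. How far cells of these 3 types account for the levels of the 7 genes was not tested.

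**Figure D4:**
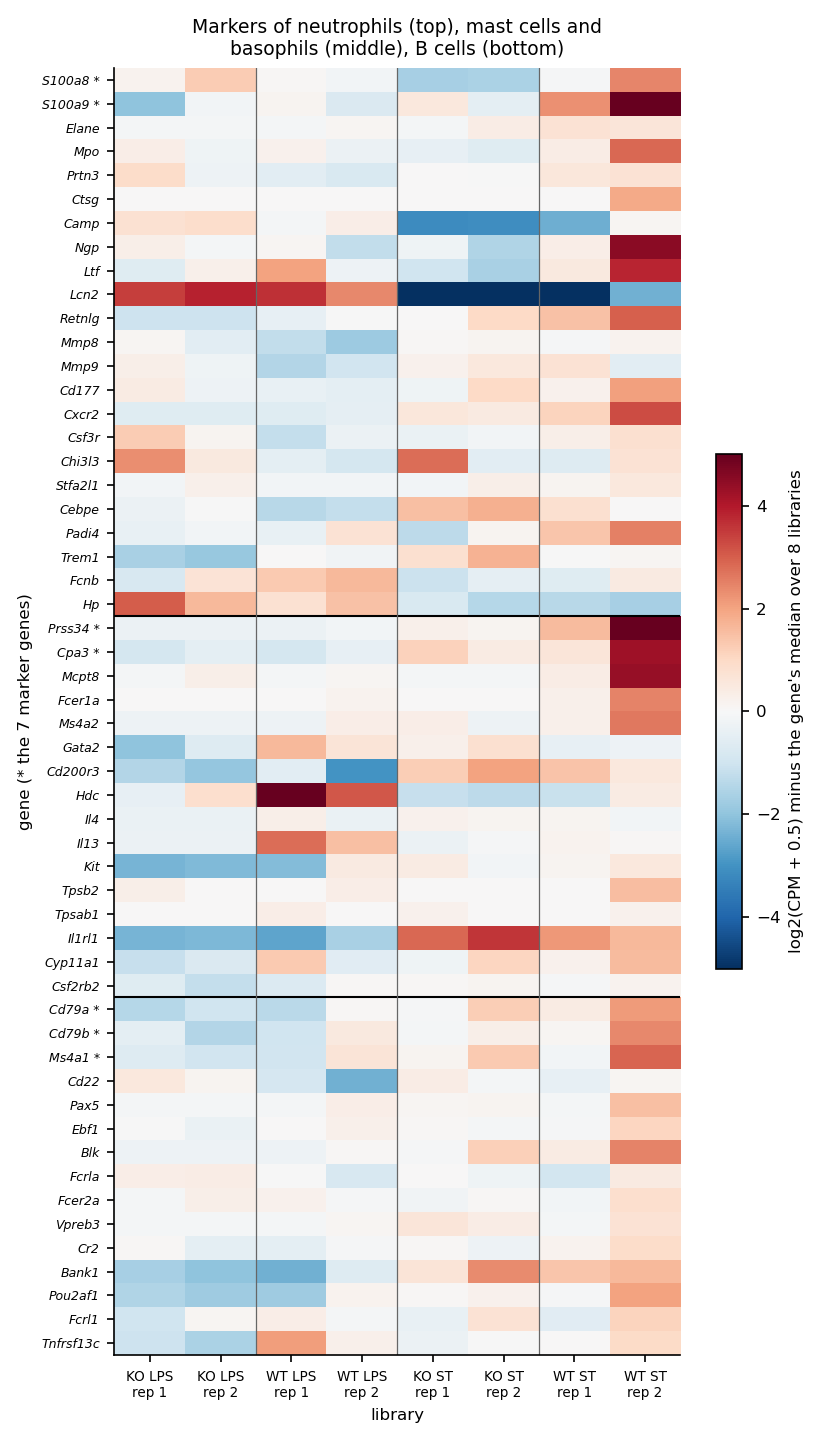
Level of the 7 marker genes (asterisks) and of other list genes with at least 1 read, as log2(CPM + 0.5) minus the gene's median over the 8 libraries, with colour clipped at 5 in either direction. The column of WT steady-state replicate 2 is high for S100a9, Ngp, Prss34, Mcpt8 and Pou2af1, while Lcn2 is high in the 4 LPS libraries.

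These other markers were also tested in the contrasts that leave out the WT steady-state group. In KO against WT with LPS edgeR called 0 of the 17 neutrophil, 0 of the 8 mast cell and basophil and 0 of the 7 B cell genes tested, beside 0.772% of all genes. At an unadjusted p under 0.05 were 8, 4 and 2 of them (16.9% of all genes), and DESeq2 called 3, 3 and 2 (8.5% of all genes). The DESeq2 calls were Csf3r, Mmp8 and Trem1, then Gata2, Hdc and Il13, and last Cd22 and Tnfrsf13c. In KO cells, LPS against steady state gave 3 higher and 2 lower of 17 neutrophil genes, 2 lower of 8 mast cell and basophil genes and 1 lower of 7 B cell genes, beside 11.8% of all genes called. DESeq2 called 6, 5 and 1 of them there, beside 22.9% of all genes. Their median log2 differences were 0.22, -2.22 and -1.94, beside -0.02 over all genes. Lcn2, Hp and Camp, a cathelicidin, were higher with LPS by 9.68 ± 1.33, 3.54 ± 0.55 and 5.78 ± 1.12 log2 units (edgeR adjusted p = 0.00810, 0.0122 and 0.0221). Trem1, an amplifying receptor of myeloid cells, and Cebpe, a granulocyte factor, were lower, at -3.31 ± 0.41 and -1.85 ± 0.36 (edgeR adjusted p = 0.00609 and 0.0229). Il1rl1, the interleukin-33 receptor, Cd200r3 and Bank1 were lower as well, at -7.70 ± 0.92, -3.53 ± 0.88 and -4.97 ± 1.26 (edgeR adjusted p = 0.00554, 0.0445 and 0.0463). Of these 8 genes, Il1rl1 alone passed in all 8 fits that left out 1 library. Cd200r3 and Bank1 passed only without WT LPS replicate 1 or 2, Camp and Cebpe lost the call without any one of the 4 KO libraries, Lcn2 and Hp without either KO steady-state library, and Trem1 without KO LPS replicate 2 (edgeR adjusted p = 0.0506).

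The genes with profiles nearest to each class over the 8 libraries were sought among 11216 genes with a mean of at least 1 CPM, by the root mean square difference of centred log2(CPM + 0.5). The class profiles hold the library that chose the genes. That the nearest genes are high in it follows from the choice and supports nothing. Among the nearest to the B cell genes were Pou2af1, a B cell coactivator, at 0.281 log2 units, Celsr2, an adhesion receptor, at 0.311 and Rasgrp3, a Ras activator, at 0.324, where the median candidate lay at 1.21. Celsr2 was at 4.16 CPM in WT steady-state replicate 2 and at most 2.21 CPM elsewhere. Nearest to the mast cell and basophil genes were Mcpt8 at 0.644, the chemokine receptor gene Cxcr2 at 0.694, Ngp at 0.872 and Retnlg, a resistin-like gene of neutrophils, at 0.910 (median candidate 1.90). Mcpt8 was also nearest to the neutrophil genes, at 0.546, before Ngp at 0.694, Ltf at 0.778 and Cxcr2 at 0.856 (median candidate 1.60). Nearest genes of the neutrophil and of the mast cell and basophil class thus overlapped in Mcpt8, Ngp and Cxcr2, whose high values lie in the same library.

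Over all 17366 genes with a read, 12 (0.0691%) lay at least 4-fold above each other library in WT steady-state replicate 2, counted on log2(CPM + 0.5). Of the 12, 3 were among the genes described (Prss34, S100a9 and Cpa3), 3 were on the neutrophil list (Ngp, Mpo and Cxcr2) and 3 on the mast cell and basophil list (Mcpt8, Ms4a2 and Fcer1a). The other 3, named like the rest after their values were seen, were N28178, Gm8221 and Apol7c, an apolipoprotein L gene at 735 CPM against at most 179 CPM elsewhere.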

How the data were processed

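RNA-seq was analysed in 8 libraries of mouse dendritic cells, 2 per group, grouped and numbered by their titles. The authors deposited whole-number read counts per gene, not normalized. Per the submitters' processing notes edgeR 3.6.8, Subread 1.4.3, TopHat2 2.0.8, featureCounts and the build mm10 were used, with roles not stated. Per the labels' protocols the TruSeq RNA kit was used, which does not mark strand. The handling of reads shared by genes was not stated.

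Counts were analysed with edgeR 4.0.16 in R 4.3.3: filterByExpr (minimum count 10, total 15) kept 12442 genes, TMM factors scaled libraries, and quasi-likelihood F tests (two-sided, all 8 libraries, 1 coefficient per group, Benjamini-Hochberg over all genes kept) gave adjusted p. Residual degrees of freedom were 4 (3.40 prior), and the biological coefficient of variation was 0.340. The SE of an edgeR log2 difference was derived from the test, as the size of the difference divided by the square root of F. The fit was tested on simulated data. An exact permutation test of 2 against 2 libraries cannot go below 0.333. Intervals are exact at 95% and cover counting error only. No fold is given where both groups had at most 3 reads over their libraries or 1 group had 0, in each fit.

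The members and lists were chosen with earlier results of these data known. Of 150 genes in 13 marker lists 145 had a row. Named were the 7 members, the 4 first-written and up to 3 most abundant other genes of the lists of the same cell types, the 4 nearest profiles per class and Gata1. Not reported here are 1 gene named by this rule and the most abundant genes of the other lists. Gene coordinates come from GENCODE vM21. Same-numbered libraries of 2 groups deviated together with correlations of -0.599 to 0.260, so the numbers were not taken to pair libraries. Alternatives were RLE factors, no filter, DESeq2 1.42.0, fits of the compared groups alone, a replicate block, other pseudocounts, total counts without a factor and leaving out each library.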

Additional observations from a re-analysis of the deposited data

Results flagged for a closer look

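The KO libraries lay above the WT libraries with LPS and below them at steady state for S100a8, with no overlap of the libraries in either, orders that 18% and 23.4% of all genes tested showed. On the log2(CPM + 0.5) scale KO minus WT was 0.77 with LPS and -2.81 at steady state. Neither is a called difference: with LPS the edgeR adjusted p was 0.616, and at steady state no test is given. The difference between these 2 contrasts was not tested. The steady-state one holds the library by which the gene was chosen, WT replicate 2 at 50.3 CPM. Both KO steady-state libraries, at 2.48 and 2.65 CPM, were also below WT replicate 1, at 8.59 CPM.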

How the results depend on the processing

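The number of genes called moved with the processing. In KO against WT with LPS it was 96, and 538 without the filter, 1058 with DESeq2 and 0 in the fit of those groups alone (1044 at an unadjusted p under 0.05). It was 8 with the replicate block, 273 with the block crossed for KO with LPS (chosen after seeing the data), and 1 to 826 when 1 library was left out, the highest without WT LPS replicate 1 and the lowest without either KO LPS library. In LPS against steady state in KO it was 1463, and 2223, 2846 and 2316 for the same first settings, 776 with the block, 2484 with the block crossed and 143 to 3345 with a library left out, the lowest without KO steady-state replicate 2 and the highest without WT LPS replicate 1. In KO against WT at steady state it was 0, and 9 without the filter, 27 with DESeq2, 1 in the fit of the groups alone and 0 to 1 with a library left out. The replicate block changed the call of none of the 7 genes. Of the alternative fits of the log2 differences, 134 kept direction and side of the threshold, 2 reversed in KO against WT with LPS (Cd79b to 0.34 without WT LPS replicate 2, and S100a9 to 0.25 without KO LPS replicate 1), and 5 brought S100a8 past the threshold in LPS against steady state in KO. With a library left out, the reversed ones ran from -2.99 to 0.34 for Cd79b and -1.47 to 0.25 for S100a9, and 7 such fits of the 7 genes left too few reads for a fold. The cause was not tested.

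The level of WT steady-state replicate 2 over the median of the other 7 libraries, as a mean over members of log2(CPM + 0.5), was 4.35 for the neutrophil, 5.65 for the mast cell and basophil and 2.49 for the B cell genes. With a pseudocount of 2 CPM it was 3.70, 3.95 and 1.69, and with 0.1 CPM the mast cell and basophil value was 7.16. Leaving out another library gave 4.10 to 4.43, 5.38 to 5.71 and 2.42 to 2.91. At 8-fold in place of 4-fold, 6 genes in place of 12 stood above each other library. With 2 libraries a group and 0 to 38 reads per library of 5 of the 7 genes outside the high one, depth limits what can be told apart.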

Other observations

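Other libraries also had genes far above the rest. Of 17366 genes with a read, 23 and 22 lay at least 4-fold above each other library in WT LPS replicates 1 and 2, beside 12 in WT steady-state replicate 2 and at most 1 in each of the other 5 libraries.

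Plasma cells are antibody-secreting descendants of B cells. Of the plasma cell list, 4 of 6 genes tested (66.7%) were highest in WT steady-state replicate 2, beside 12% of all genes tested. Their margins over the next highest library ran from 1.14-fold (Prdm1) to 3.39-fold (Mzb1). Igj, the immunoglobulin J chain, named after its values were seen, was at 0 and 0.153 CPM in KO with LPS, 0 and 2.16 in WT with LPS, 19.0 and 31.6 in KO at steady state, and 13.3 and 49.7 in WT at steady state. All 4 steady-state libraries were above all 4 LPS libraries.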
